A study of Mus musculus with 2 samples.

Results

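miR-26a and miR-26b, listed for mouse as mmu-miR-26a and mmu-miR-26b, are the 2 members of the miR-26 family of mouse microRNAs (miRNAs), small RNAs that pair with mRNAs through a short seed near their 5′ end and lower the output of those mRNAs. Their reads were chosen by counts: for each name in the study's list of known miRNAs, the sequence with the listed young and old counts was looked up, and every sequence with the same first 18 bases was added to it. A single sequence carried both counts for each name. The reference table of known mouse miRNAs held 1660 distinct starts of 18 bases, of which these were 2, and 364 of the 1660 had at least 10 reads in a library. miR-26a comprised 123 distinct sequences in the young library and 163 in the old one, out of 372464 and 505732. miR-26b comprised 55 and 94.

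Small RNAs of 18 to 30 nucleotides from whole brain were sequenced as 2 libraries. The young library combined cDNA from 2 male C57BL/6J mice, an inbred strain, aged 5 months, and the old library combined cDNA from 2 male C57BL/6J mice aged 24 to 25 months. The labels name no treatment or genetic modification for any of the mice. The 2 brains of an age cannot be separated after pooling, so each age is 1 library, no difference between them has a replicate check, and no test was made. All intervals are exact 95% intervals of the read counts and cover counting error only, not the spread between mice. They treat each read as independent, which PCR copies are not, so they can be too narrow.

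The miR-26 precursors lie inside genes of the Ctdsp family, which code for small phosphatases that act on RNA polymerase II and on the silencing of neuronal genes outside neurons. Mature miR-26 is found in many tissues, brain included. Among its known targets is Ezh2, a histone methyltransferase of the Polycomb group. Small RNA ends are not fixed: a precursor can be cleaved at neighbouring bases, and nucleotidyl transferases can add bases to the 3′ end that the gene does not encode. miR-26a is a known substrate of the uridyl transferase Zcchc11.

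The annotated mature sequences of RefSeq (GRCm38.p6) are printed to show how little separates the members, with the seed, bases 2 to 8, in capitals.
miR-26a-5p: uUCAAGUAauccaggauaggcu
miR-26b-5p: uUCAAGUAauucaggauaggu
Both carry the same seed, and no other start in the reference table had it. Over the first 18 bases they differed by C11T in DNA letters, with the base of miR-26a first, its position from the 5′ end, and the base of miR-26b last. The sequence files give T where RNA has U.

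miR-26a has 2 genes and miR-26b has 1. In NCBIM37, the assembly also called mm9, Mir26a-1 lies at chr9:118940914-118941003, in an intron of Ctdspl. Mir26a-2 lies at chr10:126432586-126432669 within Ctdsp2, where it shares at most 1 base with any annotated exon. Mir26b lies at chr1:74440884-74440968, in an intron of Ctdsp1. All 3 precursors are on the plus strand, as are their host genes. The first 18 bases of miR-26a had 2 perfect matches in the genome and those of miR-26b had 1, all of them in these precursors. The stretch of each precursor that begins at the first base of the miRNA is printed because it decides which 3′ ends are encoded, with the bases from 19 onward in capitals.
Mir26a-1: ttcaagtaatccaggataGGCTGTGCAG
Mir26a-2: ttcaagtaatccaggataGGCTGTGTCC
Mir26b: ttcaagtaattcaggataGGTTGTGGTG
The 2 genes of miR-26a encode the same bases up to position 25, 3 bases past the end of the mature miRNA, so reads of the mature form cannot be assigned to either gene. Base 21 separates miR-26a from miR-26b a second time.

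The deposited counts summed to 4523267 reads in the young library and 6658732 in the old, a factor of 1.47. Together they equal the number of genome-matching reads that the study gives, so reads without a genome match are missing. Library reads here mean these genome-matching reads. Undetermined bases were present in 4.57% of reads from young and 1.07% of reads from old brain. Reads with the 10 starts of let-7 and miR-98 were 34.1% of the young library and 49.0% of the old one. Of 6 miRNAs of brain tissue, all 6 were read in both libraries, and their summed level was 68126 reads per 1000000 library reads (RPM) in the young and 34417 in the old library. Most of that sum was miR-124-3p, with 39418 and 17001 RPM, and miR-128-3p, with 22807 and 13512, while miR-137-3p was nearly level at 261 and 258. Of the miRNAs listed for other tissues, 3 of 3 for blood summed to 606 and 322 RPM, and 2 of 2 for pituitary and endocrine tissue to 2700 and 1950. Most of the endocrine sum was miR-7a-5p, with 2654 and 1940 RPM, while miR-375-3p had 45.8 and 9.16. Whether the reads of miR-7a-5p came from outside the brain was not tested. Of 3 muscle markers, miR-1a-3p had 6223 RPM in the young and 9672 in the old library, miR-206-3p had 1231 and 1195, a sum of 7454 and 10867, and miR-133a was not assigned to a sequence. These sums differed between the libraries, though not every miRNA in them did so by much. Their part in the values of miR-26 was not tested.

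Levels of miR-26a and miR-26b were higher in the old library. miR-26a had 11433 reads in the young library, or 2528 RPM (95% interval 2481 to 2574), and 26926 in the old, or 4044 RPM (3996 to 4092). miR-26b had 3576 young reads, or 791 RPM (765 to 817), and 11432 old reads, or 1717 RPM (1686 to 1749). For each of these miRNAs the counting intervals of the libraries did not overlap. Such intervals are narrow at high read counts, so their separation does not set the members apart from other miRNAs. How many of the 364 known miRNAs with at least 10 reads in a library also had separate intervals was not counted.

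The level of miR-26a was 1.60-fold higher in the old library (1.57 to 1.64), a log2 ratio of 0.68 (0.65 to 0.71). That of miR-26b was 2.17-fold higher (2.09 to 2.26), a log2 ratio of 1.12 (1.06 to 1.17). The members together had 3318 RPM in the young and 5761 RPM in the old library, a log2 ratio of 0.80. Because whole brain was measured, a change in the share of cells that contain these miRNAs and a change in their level per cell cannot be told apart. These ratios come from the comparison through which the members were found, and they are given as a description.

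**Figure D1:**
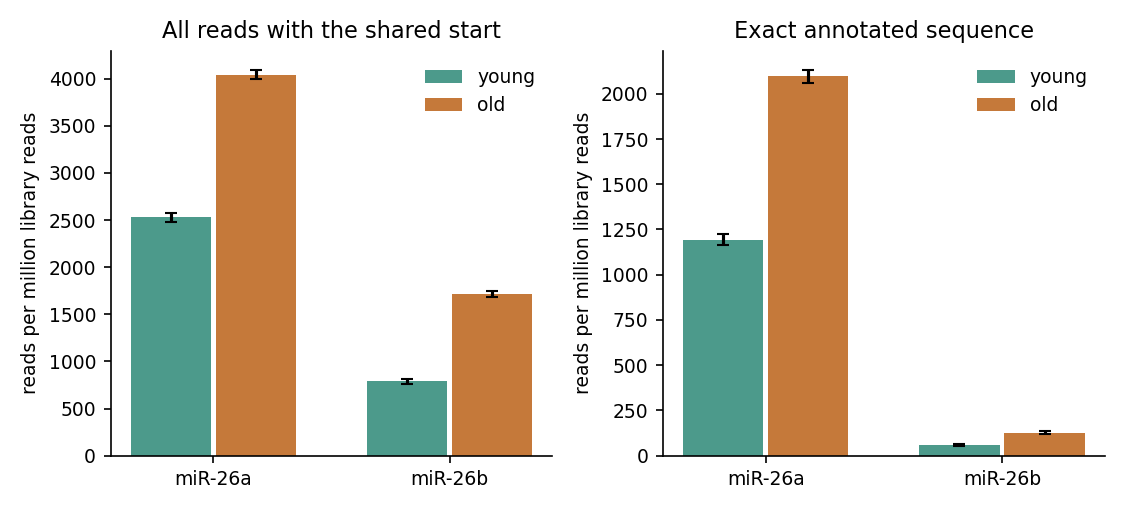
Level in RPM, reads per 1000000 library reads, of miR-26a and miR-26b in the young and the old library, 1 library each, for all reads with the shared start of 18 bases (left) and for the exact annotated sequence alone (right). Bars are the values and whiskers are 95% Poisson intervals of the reads. All 4 old bars are higher than their young partners, and miR-26b falls from 1717 RPM on the left to 126 on the right in the old library.

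Of the 364 known miRNAs with at least 10 reads in a library, 8 were at least 2-fold higher in the old library (2.2%), of which miR-26b was 1, and 114 were at least 2-fold lower (31.3%). The median log2 ratio was -0.65, and 70 were higher in the old library at all (19.2%). This balance depended on the depth chosen: scaled by TMM, a trimmed mean over miRNAs, 37 were at least 2-fold higher and 32 at least 2-fold lower, with a median of 0.02, and with the size factors of DESeq2 36 and 33. With the reads of known miRNAs as depth 3 were higher and 146 lower, and miR-26b, at a log2 ratio of 0.97, was no longer among the 3. A log2 ratio at least that of miR-26a was found for 17 (4.67%), and at least that of miR-26b for 4 (1.1%), the member itself included. With the exact annotated sequence alone, 5 of 255 were at least 2-fold higher (1.96%), and miR-26b was again among them at a log2 ratio of 1.12. Among the 364, by reads over both libraries, miR-26a ranked 20 and miR-26b ranked 38. The reference lacks some miRNAs with more reads than either member, miR-124-3p and miR-1a-3p among them. Nothing is read from these shares, since the same contrast served to find the members.

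The log2 ratios of known miRNAs were lower at higher GC content, with a slope of -0.37 per 10 percentage points of GC across the 364, and a Pearson correlation of -0.48 over miRNAs that share the same 2 libraries. The mean GC content was 48.9%, above the 40.9% of miR-26a and the 33.3% of miR-26b. The part of base composition in the ratios was not tested beyond the values that follow. Of the 134 miRNAs within 5 points of the GC content of miR-26a the median log2 ratio was -0.39, and 9 reached its value, itself included. Of the 50 within 5 points of miR-26b the median was -0.09, and 2 reached its value, itself included. The linear trend was removed by moving each value along it to the mean GC content. The log2 ratio was then 0.38 for miR-26a and 0.54 for miR-26b, above 0 for each but below 2-fold for miR-26b. These values are not distances from the trend line. The line stood at -0.34 at the GC content of miR-26a and at -0.06 at that of miR-26b.

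**Figure D2:**
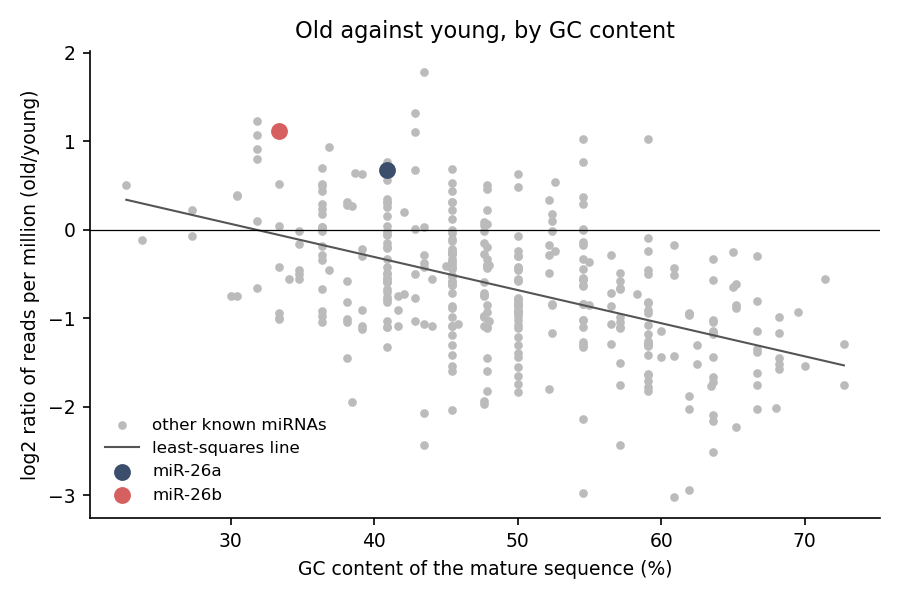
Log2 ratio of RPM (old/young) against the GC content of the mature sequence for the 364 known miRNAs with at least 10 reads in a library. Grey points are miRNAs, the line is the least-squares fit, and miR-26a and miR-26b are the large points. Both lie above the line, miR-26b at 33.3% GC and a ratio of 1.12, miR-26a at 40.9% and 0.68.

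The 3 known miRNAs with at least 100 reads in each library and the nearest log2 ratio to each member were taken from 182, a likeness over 2 libraries only. For miR-26a they were miR-16-5p (0.68), miR-195a-5p (0.67) and the shared start of let-7a-5p and let-7c-5p (0.64). For miR-26b they were let-7f-5p (1.08), miR-9-3p (1.23) and miR-98-5p (0.80).

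The balance between the members can be read within a library and does not depend on its depth. There were 31.3 reads of miR-26b per 100 of miR-26a in the young library (30.1 to 32.5) and 42.5 in the old (41.5 to 43.4). miR-26b thus took 23.8% of all miR-26 reads in the young and 29.8% in the old library. The intervals of the libraries did not overlap. The log2 ratio of miR-26b exceeded that of miR-26a by 0.44, the GC trend alone gave a difference of 0.28 between their GC contents, and 0.16 was left with the trend removed. These GC contents are those of the annotated sequences. The most-read form of miR-26b ends in a further T and so has a lower GC content, which was not used here.

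Since 1 base divides the starts of the members, misread copies of miR-26a could count as miR-26b, and the files hold a measure of that. At position 11 the changes of miR-26a to the bases of neither member, C11A and C11G, had 18 and 14 reads in the young library and 47 and 84 in the old. The average of those changes was 0.140% of the miR-26a reads in the young library and 0.243% in the old, against 31.3 and 42.5 reads per 100 for the change that gives miR-26b. The neighbouring change C12T, which is of the same kind as C11T but gives no known miRNA, had 107 young and 203 old reads, or 0.936% and 0.754%. The second dividing base, at position 21, gives another count. Of the reads with the start of miR-26b, 86 young and 241 old reads went on with bases 19 to 22 of miR-26a. They were 2.40% and 2.11% of the miR-26b reads, and 0.903% and 1.07% of the miR-26a reads with that end.

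Reads with the end of the other member were thus few in each library. Required to have bases 19 to 21 of their own precursor, the members gave 31.9 reads of miR-26b per 100 of miR-26a in the young and 43.2 in the old library. The share of miR-26b was higher in the old library by this stricter count too.

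**Figure D3:**
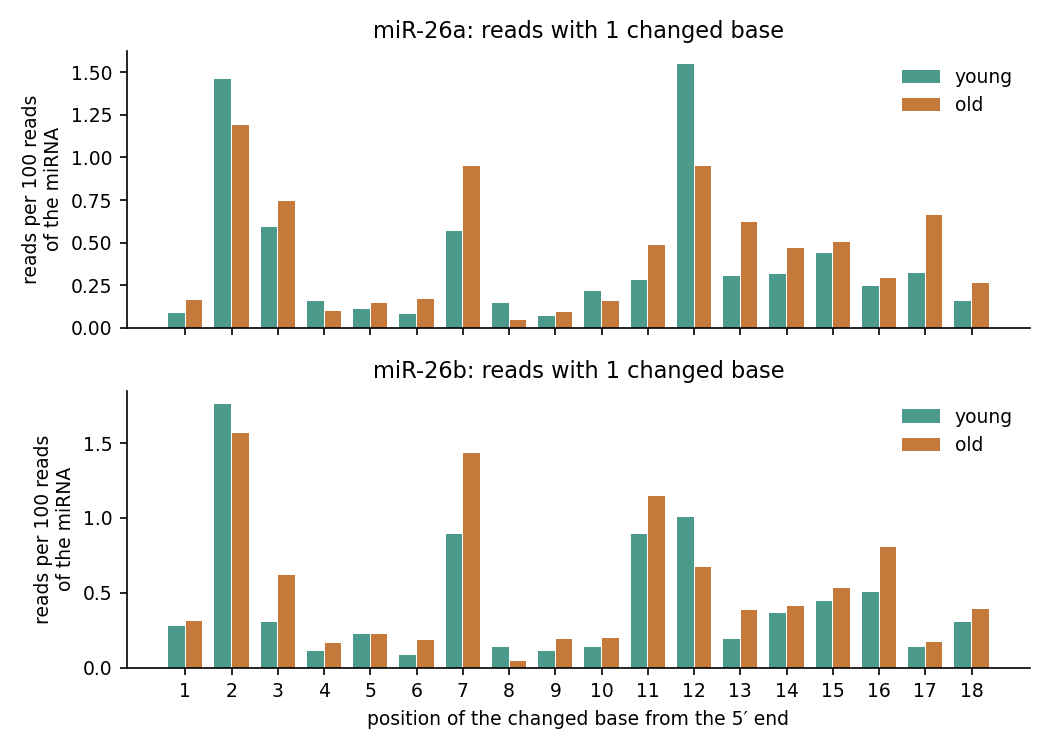
Reads with 1 changed base in the first 18 positions, per 100 reads of miR-26a (top) and miR-26b (bottom), by position from the 5′ end and by library. The change that turns one member into the other at position 11 is left out. The other changes at position 11 fit either member, so the same reads are drawn there in both panels. In the young library the tallest bars are at positions 2 and 12 for each member, and C12T alone had 0.936 young reads per 100 of miR-26a.

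The exact annotated sequence was a poor measure of miR-26b. It had 262 young and 836 old reads, only 7.33% and 7.31% of the reads with its start. For miR-26a the exact sequence had 5397 and 13958 reads, 47.2% and 51.8%. Counted this way there were 4.85 reads of miR-26b per 100 of miR-26a in the young and 5.99 in the old library, far below the balance over all ends.

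The sequences with the most reads show where the rest of miR-26b went, and the 5 with the most reads of each member are printed with the bases from 19 onward in capitals.
miR-26a tag 1: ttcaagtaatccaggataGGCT
miR-26a tag 2: ttcaagtaatccaggataGGCTT
miR-26a tag 3: ttcaagtaatccaggataGGCTTT
miR-26a tag 4: ttcaagtaatccaggataGGCTA
miR-26a tag 5: ttcaagtaatccaggataGGCA
miR-26b tag 1: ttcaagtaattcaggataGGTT
miR-26b tag 2: ttcaagtaattcaggataGGTTT
miR-26b tag 3: ttcaagtaattcaggataGGT
miR-26b tag 4: ttcaagtaattcaggataGGTTA
miR-26b tag 5: ttcaagtaattcaggataGGTA
Tag 1 of miR-26a and tag 3 of miR-26b are the annotated sequences. Tag 1 of miR-26b is 22 nucleotides long, 1 base longer than the annotation, and its last T is encoded by Mir26b.

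The 22-nucleotide form of miR-26b had 2363 young reads, 66.1% of the miRNA (64.5 to 67.6%), and 7425 old reads, 64.9% (64.1 to 65.8%). It outnumbered the annotated form in each library, and the intervals of its share overlapped between the libraries. Its log2 ratio was 1.09 (1.03 to 1.16), against 1.12 (0.91 to 1.32) for the annotated form.

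The most-read form of miR-26a was the annotated one of 22 nucleotides. Encoded bases ran to position 22 in 83.1% of miR-26a reads in the young and 82.8% in the old library, and in 82.9% and 83.2% of miR-26b reads. The position of the encoded end was thus nearly the same for the members and in the libraries. Position 21 was next, with 9.12% and 10.3% for miR-26a and 10.6% and 11.4% for miR-26b.

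Among 79 known miRNAs with at least 1000 reads in each library, the exact annotated sequence held a median of 35.8% of the reads with its start in the young and 34.8% in the old library. It was the most-read sequence for 46 of the 79 in each library. The share of miR-26b was reached or undercut by 11 of the 79 in the young library and 10 in the old, itself included.

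Beyond the encoded end, the members differed in their tails. A tail is here any base after the longest stretch that matches the precursor, over reads without undetermined bases. By this rule a read with the start of one member and the end of the other counts as tailed. There were 86 young and 241 old such reads with the start of miR-26b, and 48 and 124 with that of miR-26a. Only reads that matched the genome were present, and none was longer than 26 bases. Tails that were long or differed much from the genome can thus be missing, and how many were lost was not tested. Tails were present on 44.6% of miR-26a reads in the young library (43.7 to 45.6%) and 40.7% in the old (40.1 to 41.3%). On miR-26b they were present on 24.0% in the young (22.6 to 25.4%) and 26.2% in the old library (25.4 to 26.99%). miR-26a carried tails on more of its reads than miR-26b in each library.

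Tails of T only, uridine in the RNA, made up most of that gap. They were on 24.5% of young and 21.1% of old miR-26a reads, and on 10.3% and 12.6% of miR-26b reads. Tails of A only were closer between the members, at 13.0% and 12.2% for miR-26a and 9.47% and 9.58% for miR-26b. A T as next base after position 22 is encoded by none of the 3 genes, but a T after position 21 is encoded by all of them, and added bases that equal the encoded ones are invisible.

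Among the reads present, tails of miR-26a were also longer. A tail of 2 bases was on 18.3% of young and 17.4% of old miR-26a reads but on 3.68% and 4.33% of miR-26b reads. Those of miR-26b include 44 young and 144 old reads with the tail CT, which gives the end of miR-26a. The form with TT, tag 3 of miR-26a, had 1185 young and 2437 old reads, close to the 1370 and 2751 of the form with 1 T. A tail of 1 T was on 12.3% and 10.5% of miR-26a reads and on 9.89% and 11.9% of miR-26b reads, so that the members were closer in tails of 1 T than in tails of 2 bases. The 3′ adapter of the libraries begins with T, and an added T cannot be told apart from 1 adapter base left on the read.

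**Figure D4:**
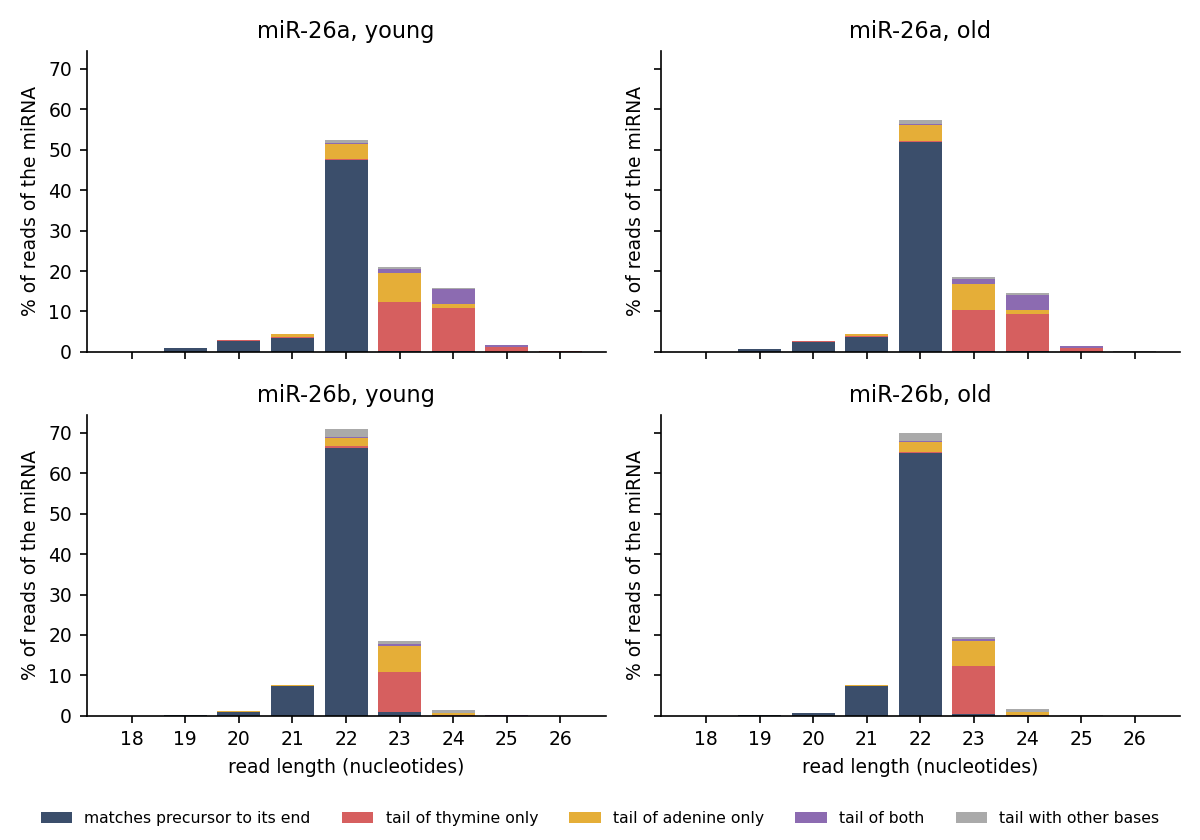
Percent of the reads of miR-26a (top) and miR-26b (bottom) by read length in nucleotides in the young (left) and old (right) library, coloured by whether the read matches its precursor to the end or carries a tail, over reads without undetermined bases. Reads of 22 nucleotides lead in all 4 panels, and reads of 24 nucleotides are 15.8% (young) and 14.5% (old) of miR-26a but 1.35% and 1.64% of miR-26b.

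Between the libraries the tailed shares of the members differed in opposite directions. The old minus the young share was -3.94 percentage points for miR-26a and 2.18 points for miR-26b. The intervals of young and old did not overlap for miR-26a, and those of miR-26b overlapped slightly. Over 72 known miRNAs with at least 1000 reads in each library and a precursor long enough to judge, the median difference was 1.24 points, with 54 of 72 above 0 and quartiles at 0.0806 and 2.14 points. The value of miR-26a was the lowest of the 72.

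For T tails alone the old minus the young share was -3.42 points for miR-26a, again the lowest of the 72. It was 2.27 points for miR-26b, with 69 of 72 at or below that value, and here its intervals did not overlap. The median of the 72 was 0.33 points. In level, miR-26a ranked 5 of 72 by T tails in each library, and miR-26b ranked 13 in the young and 7 in the old. There is no replicate from which the spread of tails between mice could be had.

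The separate forms of miR-26a carried these shares into their log2 ratios. The annotated form had a log2 ratio of 0.81 (0.77 to 0.86), above the 0.45 (0.35 to 0.54) of the form with 1 T, the 0.48 (0.38 to 0.58) of the form with TT and the 0.41 (0.28 to 0.54) of the form with 1 A after base 22. The form with an A in place of base 22, tag 5, had 0.85 (0.68 to 1.03). Every one of these was above 0. Of the forms of miR-26b, tag 2 with an added T was read 352 times in young and 1360 times in old brain, which gives a log2 ratio of 1.39 (1.22 to 1.57). Tag 4 with an added A was read 205 and 597 times and gave 0.98 (0.75 to 1.22).

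**Figure D5:**
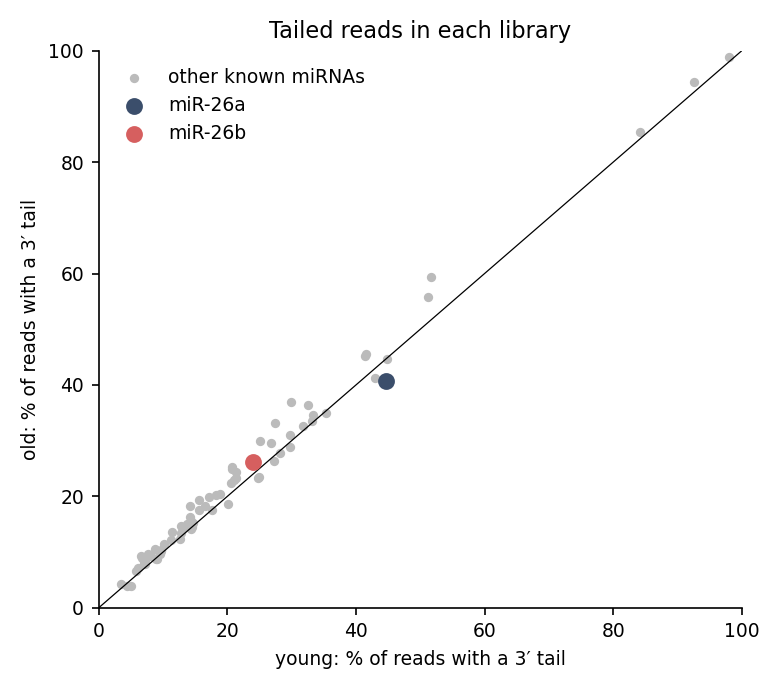
Percent of reads with a 3′ tail in the young (horizontal axis) and old (vertical axis) library for 72 known miRNAs with at least 1000 reads in each library. The line marks equal shares. miR-26a, at 44.6% and 40.7%, lies below the line, and miR-26b, at 24.0% and 26.2%, lies above it.

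The 5′ ends, which set the seed, were nearly uniform. Of reads that began near the 5′ end of the miRNA on the precursor, those with the annotated start made up 98.9% of young and 98.5% of old miR-26a reads and 98.1% of both young and old miR-26b reads. The most frequent other encoded start lay 3 bases downstream, with 69 young and 241 old reads of miR-26a (0.597% and 0.873%) and 57 and 162 of miR-26b (1.56% and 1.38%). A C that neither precursor of miR-26a encodes stood before the start in 77 young and 195 old reads of miR-26a, 0.673% and 0.724% of its reads.

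The encoded base before the start differs between the genes of miR-26a, and so could show which one was read. It was the A of Mir26a-2 in 2 young and 5 old reads and the G of Mir26a-1 in 0 young and 1 old reads. The opposite arm of the precursors, which also differs between the genes, was nearly absent. The 3p sequences are printed because each whole sequence belongs to 1 gene, with bases 2 to 8 in capitals, which Mir26a-2 and Mir26b share.
miR-26a-1-3p: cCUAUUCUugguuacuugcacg
miR-26a-2-3p: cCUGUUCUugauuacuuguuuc
miR-26b-3p: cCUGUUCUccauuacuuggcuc
Reads of the 3p arm were found for Mir26a-2 only, with 2 young (exact Poisson interval 0.242 to 7.22) and 5 old reads (1.62 to 11.7). Mir26a-1 and Mir26b had 0 in each library, where the same interval reaches up to 3.69 reads. These counts are too few to compare the genes or the libraries. No read lay between the arms of any of the 3 precursors.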

How the data were processed

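Small RNA reads of 36 nucleotides from 1 young and 1 old brain library were used. The authors aligned them to mm9 with SOAP (version not given in the sources used here), removed the 3′ adapter with up to 3 mismatches and collapsed identical sequences. The deposited values are read counts per distinct sequence, without normalization, and by their totals they cover genome-matching reads only. Trimming decides 3′ ends to the base.

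Counts were divided by total reads, with 0 set to 0.5 in ratios. Known miRNAs were the RefSeq mature sequences (GRCm38.p6), which are not complete, counted over all tags with the same first 18 bases and at least 10 reads in a library. Precursor positions come from perfect matches in NCBIM37. edgeR's quasi-likelihood test could not be fitted with 1 library per age; edgeR 4.0.16 (TMM) and DESeq2 1.42.0 in R 4.3.3 gave scaling factors only. Intervals are Clopper-Pearson or exact Poisson. Python 3.11.15, numpy 2.4.6, scipy 1.17.1 and matplotlib 3.10.9 were used. In simulated counts for 364 starts, 200 of them changed, 96.7% of the 95% intervals held the true ratio. The counts were drawn with Poisson counting error only, so this checks the calculation and not PCR copies or the spread between mice.

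Named were the members, the other arms, the 5 tags with most reads of each and the 3 miRNAs nearest in log2 ratio with at least 100 reads. Members and lists were chosen with earlier results of these data known.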

Additional observations from a re-analysis of the deposited data

Results flagged for a closer look

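Reads outside the counted sequences were found in numbers far above 3, the limit of reads set for a count of 0. Reads whose undetermined bases fit 1 member and not the other numbered 561 young and 256 old for miR-26a and 168 and 111 for miR-26b. They were 4.91% and 0.95% of the miR-26a reads and 4.70% and 0.97% of those of miR-26b. In the young library most lacked base 2, which was undetermined in 500 reads of miR-26a and 150 of miR-26b. The loss was thus alike for the members and larger in the young library.

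Reads with 1 substitution in the first 18 bases, position 11 left out, numbered 781 young and 2025 old for miR-26a and 251 and 952 for miR-26b, or 6.83% and 7.52%, and 7.02% and 8.33%. The change T2G, within the seed, was the most frequent in the old library, with 287 reads of miR-26a and 159 of miR-26b. Their origin was not tested.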

How the results depend on the processing

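miR-26a and miR-26b were higher in the old library under all 13 alternatives, with log2 ratios of 0.38 to 1.34 and of 0.54 to 1.78. In the order miR-26a, miR-26b, together, the log2 ratios were 0.53, 0.97 and 0.64 with known-miRNA reads as depth, 1.34, 1.78 and 1.46 after TMM scaling, 1.32, 1.76 and 1.44 by the size factors of DESeq2, 1.05, 1.49 and 1.17 with total reads without let-7 and miR-98, and 0.38, 0.54 and 0.42 with the GC trend removed. For miR-26a and the members together they were 0.81 and 0.83 with the counted tag alone, 0.62 and 0.74 with undetermined bases allowed in tags, and 0.63 and 0.74 with reads without undetermined bases as depth. Other starts (16 or 20 bases, moved starts, substitutions) and the removal of tags read once stayed within the counting intervals. TMM shifted the log2 ratios of all known miRNAs by 0.66, DESeq2's factors by 0.65, reads without let-7 and miR-98 by 0.37 and known-miRNA reads by -0.15, so levels are relative to the depth chosen.

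Known miRNAs at least 2-fold higher numbered 3 with known-miRNA reads, 37 with TMM, 36 with DESeq2, 21 without let-7 and miR-98 and 4 with the GC trend removed, and those at least 2-fold lower 32 with TMM, 33 with DESeq2 and 56 without let-7 and miR-98. By counted tags there were 4.85 (young) and 5.99 (old) reads of miR-26b per 100 of miR-26a. Tails of 1 base only were on 23.5% (young) and 20.5% (old) of miR-26a and 18.2% and 20.04% of miR-26b reads. The causes were not tested. No paired analysis was possible because each age is 1 library. With 1 library per age, leaving out a replicate was not possible either.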
